A study of Mus musculus with 9 samples.

Results

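Complement is a cascade of plasma and cell-surface proteins that tags targets for uptake, draws in leukocytes and can open pores in membranes. The classical and lectin routes cleave C4 and C2 to build a C3 convertase, the alternative route builds one from C3 and factor B, and regulators such as factor I, CD55 and the C1 inhibitor hold these enzymes back. The liver makes most circulating complement, and kidney tubular epithelium is known as a local source of C3 in injury and inflammation.

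Complement components and regulators were followed here as 9 genes, chosen by symbol from the 31167 genes of the deposited table. They are the proteases C1ra and C1s1, the convertase components C2, C4b, C3 and Cfb, and the regulators Cfi, Serping1 and Cd55. RNA was sequenced from mouse primary renal tubular epithelial cells of C57BL/6 kidney, with 3 libraries in each of 3 groups. Sham cells are described as untreated. H/R cells were kept for 6 h at 1.0% oxygen in glucose-free medium and then for 18 h in complete medium with normal oxygen, which mimics ischemia and reperfusion. EGR1OV cells received, with the reagent EndoFectin Max, a plasmid that drives the transcription factor Egr1 from the cytomegalovirus promoter, which is active in most cell types. The labels carry the same protocol text, with both transfection and H/R, for all 9 libraries, so the treatment of each group is given as the study's description of the sequenced groups has it. The study's general methods place transfection before H/R, and the sources used here do not settle whether EGR1OV cells also went through H/R or whether Sham cells received an empty plasmid. No group is named as carrying an empty plasmid, so unless Sham did, the Egr1 protein and the transfected DNA cannot be told apart in EGR1OV. No source used here says whether the 3 libraries of a group came from separate cultures or animals, so p-values measure the spread between these libraries only.

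Values are FPKM, fragments per kilobase of exon after scaling for library size, which allows levels to be compared between genes as well as between libraries. The step between low values gave back whole reads, with a depth of 16183617 to 18384022 reads per library, and reads are given wherever a value rests on few of them. Differences were tested with limma on log2(FPKM + 1) over the 13985 genes whose mean reached 0.5 FPKM. To pass, a gene needed an adjusted p under 0.05 and a large enough fold of FPKM + 1. That fold was 1.3 or more, or 1.2 or more where H/R was set against Sham. Log2 changes given here are of FPKM + 1, which understates changes of low genes. Egr1 itself, read as a check of the labels, ran from 6.09 to 6.91 FPKM in the Sham libraries, from 7.48 to 8.57 in H/R and from 40.1 to 45.7 in EGR1OV. Among the tubular markers Krt8 was the most abundant, at a mean of 1014 FPKM in Sham, while the proximal tubule transporter Slc34a1 had at most 3 reads in any library. Gm23935, annotated as a miRNA gene, stood apart at 19504 to 21700 FPKM in Sham 3, H/R 2 and H/R 3 and at 1494 to 9378 in the other libraries, and its use as a covariate changed no call of a member.

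Promoters of the members are shown first, because members that moved together are set beside one that did not. RefSeq (GRCm38.p6) gave the region from 250 bases before to 50 bases after the start for 4 of the 9 members, C3, C1ra, C1s1 and Cd55. C2, C4b, Cfb, Cfi and Serping1 had no entry. The region of C3 is chr17:57228087-57228386 on the minus strand, that of C1ra is chr6:124512371-124512670 on the plus strand, that of C1s1 is chr6:124542310-124542609 on the minus strand, and that of Cd55 is chr1:130462695-130462994 on the minus strand. C1s1 has a further start close by, whose region overlaps the one shown. Capitals mark the only match to the motifs searched.
C3: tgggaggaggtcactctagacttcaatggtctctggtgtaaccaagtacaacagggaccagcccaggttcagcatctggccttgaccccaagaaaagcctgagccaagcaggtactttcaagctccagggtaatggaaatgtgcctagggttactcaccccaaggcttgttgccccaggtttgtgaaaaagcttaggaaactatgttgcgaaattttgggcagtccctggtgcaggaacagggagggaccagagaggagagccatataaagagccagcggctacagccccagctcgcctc
C1ra: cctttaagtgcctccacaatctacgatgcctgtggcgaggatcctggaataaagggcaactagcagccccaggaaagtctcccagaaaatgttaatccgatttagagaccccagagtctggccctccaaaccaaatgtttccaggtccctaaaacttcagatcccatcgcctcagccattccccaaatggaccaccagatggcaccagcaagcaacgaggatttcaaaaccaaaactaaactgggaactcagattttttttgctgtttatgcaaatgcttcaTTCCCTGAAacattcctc
C1s1: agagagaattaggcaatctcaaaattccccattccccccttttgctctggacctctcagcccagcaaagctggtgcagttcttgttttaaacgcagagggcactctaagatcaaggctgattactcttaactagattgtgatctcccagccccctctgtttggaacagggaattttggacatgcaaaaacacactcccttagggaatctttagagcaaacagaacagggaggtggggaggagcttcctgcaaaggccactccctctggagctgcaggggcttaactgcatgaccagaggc
Cd55: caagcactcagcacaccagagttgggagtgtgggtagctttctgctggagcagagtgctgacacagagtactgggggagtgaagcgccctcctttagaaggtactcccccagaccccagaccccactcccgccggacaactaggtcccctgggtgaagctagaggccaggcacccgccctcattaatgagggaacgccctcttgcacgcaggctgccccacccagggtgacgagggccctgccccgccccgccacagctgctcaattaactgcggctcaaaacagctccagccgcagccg
The match in C1ra, TTCCCTGAA, begins 33 bases into the RefSeq transcript and has the form of the gamma-activated site (TTCNNNGAA), which STAT factors can bind. The deposited gene start of C1ra, at position 124512405, lies inside the region shown, so most of that region is within the annotated gene. That form was held by 8.30% of all 32851 promoters in the RefSeq table. The interferon-stimulated response element (GAAA, any 2 bases, GAAA), held by 3.44% of them, had no match in the member regions. The NF-kB form (GGG, any 2 bases, TTTCC), held by 1.63%, and the Egr1 form GCGNGGGCG, held by 5.55%, had no match there either. Both strands were searched, no matches overlapped, and a match is a description of these letters in this window only.

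In EGR1OV, C3 rose from the fifth place among the members to the first. C1ra, C1s1, Cfi and Serping1 also rose, by 4.06 to 6.51 times in mean FPKM, while Cd55 did not pass the test. C2, C4b and Cfb lay under the filter on low values, and each had more reads in every EGR1OV library than in any other. In H/R against Sham C3 was the single member that passed. Of the 9 members, 6 passed the filter on low values, and Serping1 did so only through EGR1OV. Of these 6, 5 passed the test as higher in EGR1OV against Sham, where 9.87% of all genes tested passed as higher and 6.51% as lower. Against H/R the same 5 passed as higher in EGR1OV, with 11.9% of all genes higher and 6.94% lower. In H/R against Sham 1 member passed as higher, with 1.6% of all genes higher and 2.65% lower. The comparisons share the Sham or the EGR1OV libraries, so they are not independent of each other. The members and lists were chosen with earlier results of these data known. Their counts beside the shares over all genes, here and below, are descriptions and not tests of the sets.

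**Figure D1:**
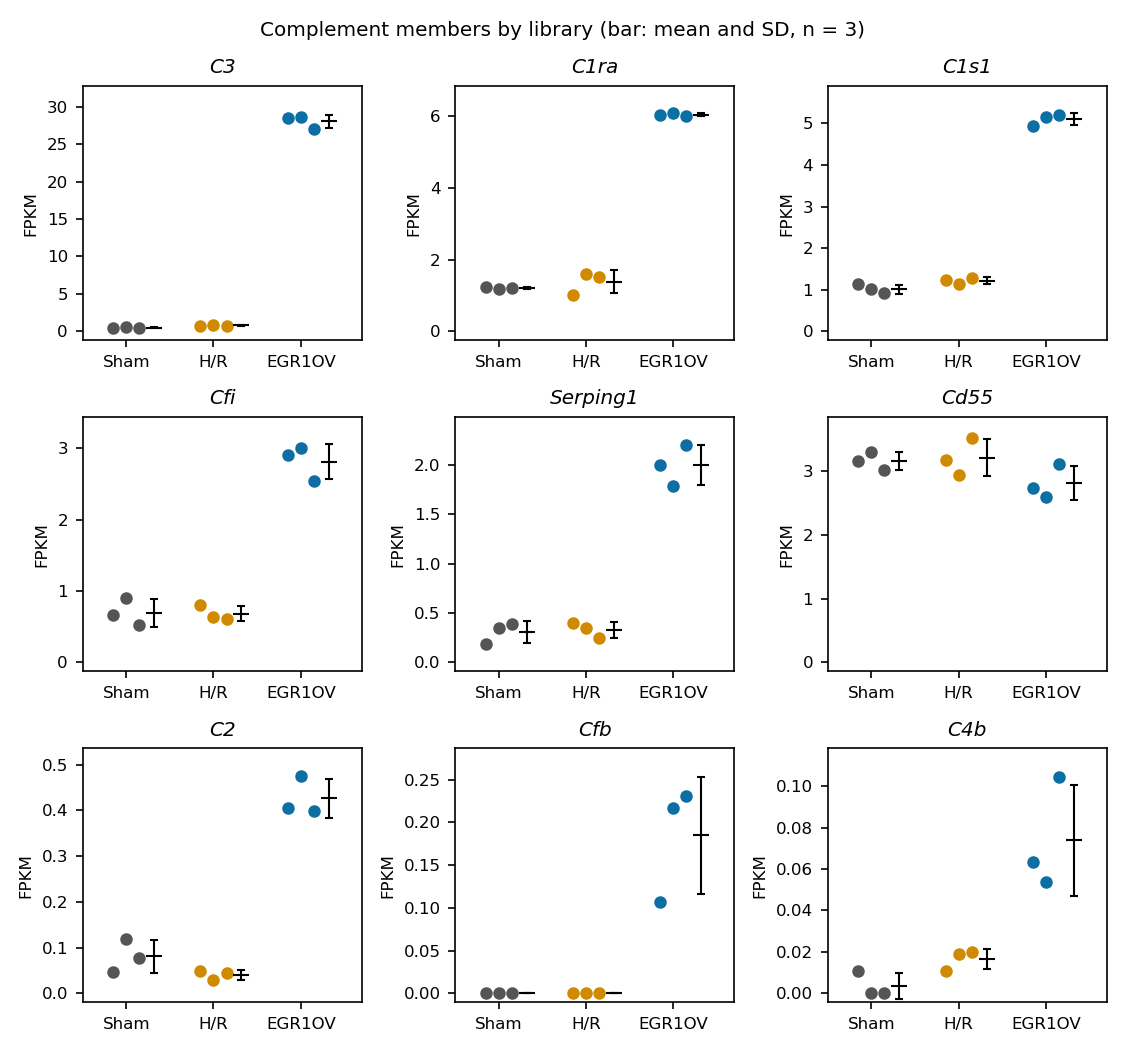
FPKM (vertical axes, linear and different in each panel) of the 9 members in the 3 libraries of each group, with the mean and SD beside the points. In 8 members each EGR1OV library lies above each Sham and H/R library, and in Cd55 the groups overlap.

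C3, the protein on which all routes converge, lies on chromosome 17 (chr17:57203970-57228136, minus strand, ENSMUSG00000024164). Its level was 0.485, 0.580 and 0.424 FPKM in the Sham libraries, from 36 to 52 reads each. In H/R it was 0.757, 0.899 and 0.745 FPKM, from 63 to 85 reads. In EGR1OV it was 28.4, 28.6 and 27.0 FPKM, from 2338 to 2429 reads. The 3 groups did not overlap, and the EGR1OV libraries differed little among themselves. The mean was 28.0 ± 0.885 FPKM (SD, n = 3) in EGR1OV and 0.496 ± 0.0786 in Sham (SD, n = 3), a ratio of 56.5. On the log2(FPKM + 1) scale the change was +4.28 ± 0.06 (SE), with a limma adjusted p of 3.9e-11. Against H/R the change was +4.01 ± 0.06 (SE), and the ratio of means was 35.0.

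C3 also passed in H/R against Sham, at +0.27 ± 0.06 (SE) with a limma adjusted p of 0.020. The mean FPKM was 1.61 times that of Sham, and all 3 H/R libraries lay above all 3 Sham libraries. This call was lost when no filter on low values was used (limma adjusted p = 0.051) and when only the H/R and Sham libraries were fitted by limma (adjusted p = 0.083). It was also lost without Sham 1 (limma adjusted p = 0.056), without Sham 3 (0.063) or without H/R 2 (0.057).

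C1ra and C1s1 encode the proteases C1r and C1s, which sit on C1q and, once activated, cleave C4 and C2. Both genes lie close together on chromosome 6 on opposite strands, C1ra at chr6:124512405-124523443 (ENSMUSG00000055172) and C1s1 at chr6:124530345-124542359 (ENSMUSG00000038521). C1ra, whose promoter region held the gamma-activated site form, was at 1.24, 1.19 and 1.22 FPKM in Sham, 1.02, 1.61 and 1.51 in H/R, and 6.02, 6.08 and 6.00 in EGR1OV. Every EGR1OV library was above every other library, while the Sham libraries lay within the range of H/R. C1ra rose by 4.95 times in mean FPKM against Sham, a log2 change of +1.66 ± 0.09 (SE) with a limma adjusted p of 4.6e-07. Whether the form in the C1ra region plays a part was not tested. C1s1, whose promoter region held no match, was at 1.13, 1.01 and 0.910 FPKM in Sham and 1.24, 1.13 and 1.28 in H/R. In EGR1OV C1s1 was at 4.95, 5.16 and 5.20 FPKM. Its lowest H/R library lay just above its highest Sham library, and the EGR1OV libraries lay far above both. C1s1 rose by 5.03 times in mean FPKM, a log2 change of +1.60 ± 0.06 (SE) with a limma adjusted p of 3.3e-08. In H/R against Sham the log2 change of C1s1 was +0.14 ± 0.06 (SE), and that of C1ra was +0.09 ± 0.09 (SE), with limma adjusted p of 0.16 and 0.55.

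The level of C1ra over that of C1s1 overlapped between Sham and EGR1OV while both genes rose, and it spread most in H/R. This ratio was 1.10, 1.18 and 1.34 in the Sham libraries and 1.22, 1.18 and 1.15 in the EGR1OV libraries. In H/R it was 0.816, 1.42 and 1.18, so the groups overlapped. The ratio of C3 to C1s1 was 0.430 to 0.575 in Sham, 0.583 to 0.796 in H/R and 5.19 to 5.75 in EGR1OV. Of the 100-base windows in C1ra transcripts, 34.5% were shared with the near-identical copy C1rb, and 6.87% of those in C1s1 were shared with C1s2, so reads could be split between copies. C1rb had at most 2 reads and C1s2 at most 4 in any library. C1s1 also shares 18.4% of its exon bases with Gm16567 on the opposite strand, and whether the counting used strand is not given in the sources used here.

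Cfi and Serping1 are soluble regulators, and both rose in EGR1OV. Cfi encodes factor I, the protease that inactivates C3b and C4b (chr3:129835884-129875332, plus strand, ENSMUSG00000058952). Cfi was at 0.657, 0.904 and 0.518 FPKM in Sham, 0.807, 0.637 and 0.610 in H/R, and 2.90, 3.00 and 2.54 in EGR1OV. The Sham and H/R libraries overlapped throughout, and the lowest EGR1OV library lay above all of them. The ratio of EGR1OV to Sham means was 4.06, with a log2 change of +1.18 ± 0.10 (SE) and a limma adjusted p of 9.8e-06. The change of Cfi in H/R against Sham lay between -0.22 and 0.22 on the log2 scale (95% interval).

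Serping1 encodes the C1 inhibitor, which blocks C1r and C1s (chr2:84765387-84775444, minus strand, ENSMUSG00000023224). Its level was 0.183, 0.345 and 0.391 FPKM in Sham, 0.399, 0.351 and 0.242 in H/R, and 1.99, 1.79 and 2.198 in EGR1OV. Reads numbered 7 to 15 per Sham library, 10 to 15 per H/R library and 68 to 86 per EGR1OV library. The EGR1OV libraries stood clear of the rest, and the Sham libraries overlapped with H/R. Serping1 rose by 6.51 times in mean FPKM against Sham, with a log2 change of +1.198 ± 0.09 (SE) and a limma adjusted p of 6.5e-06. On that scale the 95% interval of its change in H/R against Sham ran from -0.18 to 0.24.

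Cd55, which encodes the membrane protein that speeds the decay of C3 convertases on the cell's own surface, took another course (chr1:130439027-130462744, minus strand, ENSMUSG00000026399). It was the most highly expressed member in Sham and in H/R. Its level was 3.17, 3.31 and 3.02 FPKM in Sham, 3.18, 2.95 and 3.52 in H/R, and 2.74, 2.597 and 3.12 in EGR1OV. The groups overlapped in each comparison. The log2 change in EGR1OV against Sham was -0.13 ± 0.07 (SE), with a 95% interval from -0.28 to 0.03 and a limma adjusted p of 0.17. Against H/R it was -0.14 ± 0.07 (SE), and in H/R against Sham it was +0.02 ± 0.07 (SE), with limma adjusted p of 0.12 and 0.92.

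C2, Cfb and C4b lie close together on chromosome 17, and all 3 had a mean under the filter on low values. They were read as recovered reads and in a limma fit without the filter over 29404 genes, in which 4.96% of genes passed as higher in EGR1OV against Sham. The log2(FPKM + 1) scale compresses changes at such low levels, so ratios of reads per depth are given with exact 95% binomial intervals, which cover counting error only.

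C2 encodes the protease of the classical convertase (chr17:34862604-34898265, minus strand, ENSMUSG00000024371). It had 3, 8 and 5 reads in Sham, 3, 2 and 3 in H/R, and 26, 30 and 26 in EGR1OV. The EGR1OV libraries stood apart from the rest, and Sham and H/R overlapped. The ratio of EGR1OV to Sham was 5.19, with an interval from 3.01 to 9.499. In the unfiltered limma fit the log2 change was +0.40 ± 0.04 (SE), with an adjusted p of 9.3e-05. That value was just past 1.3-fold and fell short of it without Sham 1 (+0.38) or without EGR1OV 2 (+0.37).

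Cfb encodes factor B, the protease of the alternative convertase (chr17:34856374-34862518, minus strand, ENSMUSG00000090231). It had 0 reads in each of the 6 Sham and H/R libraries and 5, 10 and 11 reads in EGR1OV. Against a floor of 3 reads over the Sham group, Cfb was at least 8.77-fold higher in EGR1OV, and against the same floor in H/R it was at least 9.11-fold higher. These bounds take the 26 EGR1OV reads as exact, and the exact 95% binomial interval, which allows for their counting error, had a lower limit of 6.64 against Sham and 6.89 against H/R. Its limma adjusted p in the unfiltered fit was 0.0022, with a log2 change of +0.24 ± 0.04 (SE) that was below 1.3-fold on this scale. With limma voom on the recovered reads Cfb passed, with an adjusted p of 2.1e-06. Of the exon bases of Cfb 79.5% are also annotated to Gm20547, a locus on the same strand, as are 42.8% of those of C2, so reads there may have been split or left out.

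C4b encodes one of the mouse C4 proteins (chr17:34728380-34743882, minus strand, ENSMUSG00000073418). It had 1, 0 and 0 reads in Sham, 1, 2 and 2 in H/R, and 6, 5 and 10 in EGR1OV. The ratio of EGR1OV to Sham was 21.3, with an interval from 3.42 to 879, so its size is poorly fixed at this depth. The ratio of EGR1OV to H/R was 4.41, with an interval from 1.62 to 14.98. In the unfiltered limma fit the change against Sham was +0.10 ± 0.02 (SE) with an adjusted p of 0.011, below 1.3-fold on this scale, and voom on the recovered reads passed it with an adjusted p of 0.00013. The related gene C4a, which shares 15.2% of the 100-base windows of C4b, had 9 to 11 reads in Sham and 7 to 16 in EGR1OV.

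**Figure D2:**
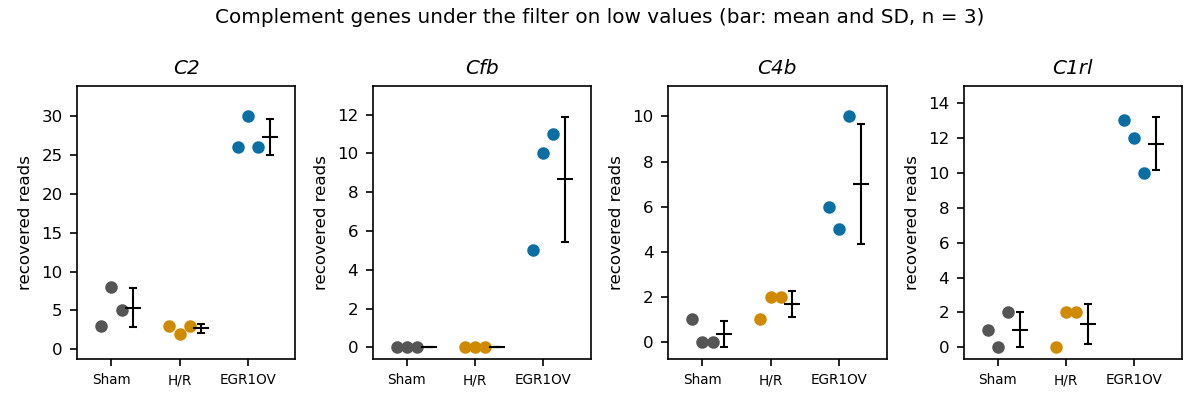
Recovered reads (vertical axes, linear) in each library for the 3 members under the filter, C2, Cfb and C4b, and for C1rl, a relative of C1r, with the mean and SD beside the points. All 4 genes have more reads in each EGR1OV library than in any Sham or H/R library.

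Across all 9 members, 8 had each EGR1OV library above each Sham library, where 17.9% of the 29404 genes above 0 did so. Against H/R it was again 8 of 9, with 21% of all genes. In H/R, 3 members lay above all Sham libraries (C3, C1s1 and C4b), with 7.09% of all genes, although in C4b the lowest H/R and the highest Sham library had 1 read each. For each of these members the exact two-sided permutation test of mean FPKM gave p = 0.1, the smallest value that 3 against 3 libraries allow. For Cd55 the exact permutation p was 0.2 for EGR1OV against Sham, and the test of H/R against Sham gave an exact permutation p of 0.9.

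The order of levels differed between the groups. In Sham the order was Cd55, C1ra, C1s1, Cfi, C3, Serping1, C2, C4b and Cfb, with libraries of neighbours overlapping between Cfi and C3 and between C4b and Cfb. In H/R, C3 was listed ahead of Cfi, but their libraries overlapped, as did those of C1ra and C1s1. In EGR1OV the order was C3, C1ra, C1s1, Cd55, Cfi, Serping1, C2, Cfb and C4b, and only the libraries of Cd55 and Cfi overlapped between neighbours. The summed level of the 9 members was 6.56 to 7.46 FPKM in Sham, 7.46 to 7.97 in H/R and 46.8 to 48.0 in EGR1OV. In Sham C3 made up 7.11% of the summed mean, in H/R it made up 10.4%, and in EGR1OV it made up 59.0%. Cd55 made up 45.4%, 41.9% and 5.94% in the same order.

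Other complement genes were read from lists of 55 genes by role, which include the members. Of the 55, 50 were in the table and 21 passed the filter on low values. Among the 15 of these that are not members, 1 passed as higher and 11 as lower in EGR1OV against Sham. Over all genes tested 9.87% passed as higher and 6.51% as lower. The median log2 change of the 15 was -0.51, beside 0.02 over all genes tested. In H/R against Sham 0 of the 15 passed by limma, where 1.6% of all genes tested passed as higher and 2.65% as lower. Of the 15, 4 had an unadjusted limma p under 0.05, and 1 (C1qc) passed by voom on recovered reads. The limma adjusted p was under 0.05 for 2 of them, Cfp and C1qa, which fell short of 1.2-fold on the log2(FPKM + 1) scale. In mean FPKM, Sham was 1.24 times H/R for Cfp and 1.18 times H/R for C1qa.

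**Figure D3:**
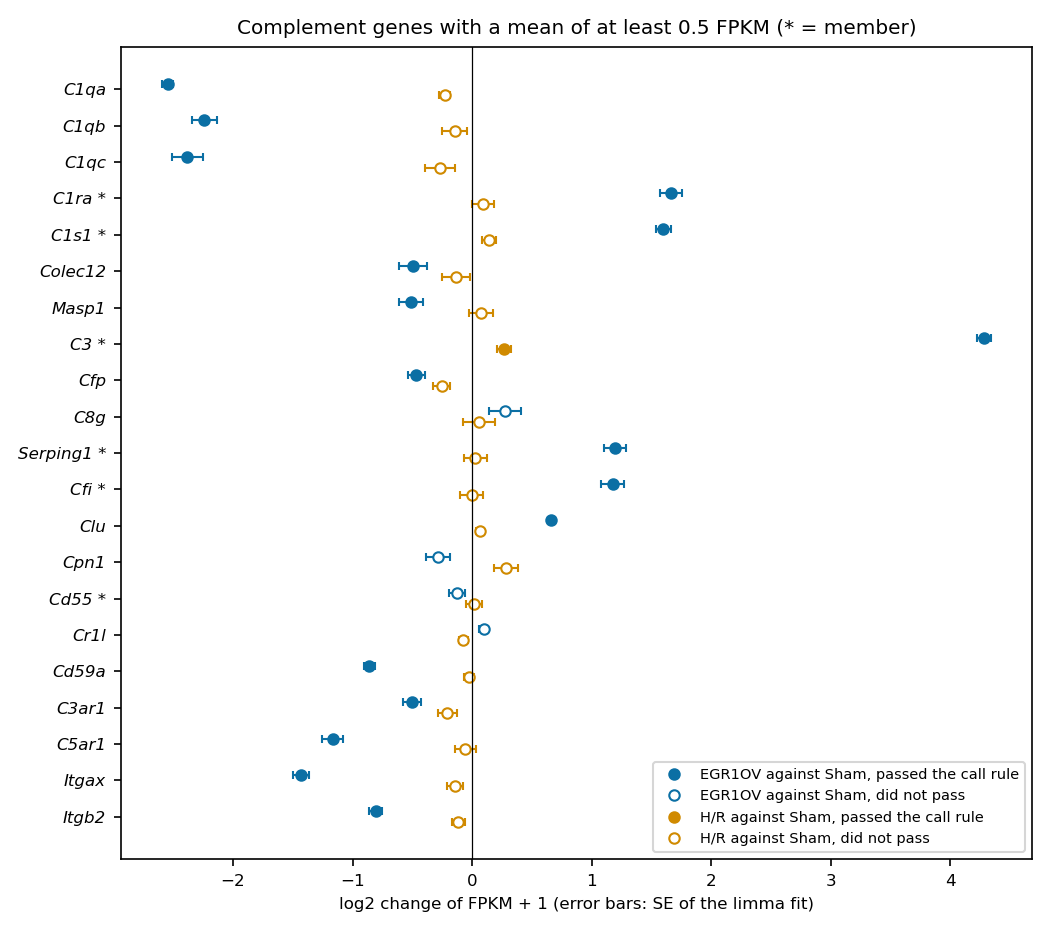
Log2 change of FPKM + 1 (horizontal axis) of the 21 complement genes past the filter, with the SE of the limma fit, for both comparisons with Sham, ordered by role. Filled points passed the call rule, an asterisk marks members, and in EGR1OV the rises of C3, C1ra, C1s1, Serping1, Cfi and Clu stand beside falls of the C1q chains and the receptors.

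In the classical route the recognition subunit and its proteases moved in opposite directions. C1qa, C1qb and C1qc encode the chains of C1q, which binds antibody and other targets and carries C1r and C1s. C1qa was at 30.3, 32.5 and 30.5 FPKM in Sham, 26.6, 27.2 and 25.3 in H/R, and 4.63, 4.18 and 4.69 in EGR1OV. The level of C1qa in EGR1OV was thus below that of C1ra, whereas in Sham it was far above. C1qa fell by 2.55, C1qb fell by 2.24 and C1qc fell by 2.38 on the log2 scale against Sham (limma adjusted p of 2.4e-10, 1.8e-07 and 4.9e-07). C1rl, which was under the filter, had 1, 0 and 2 reads in Sham, 0, 2 and 2 in H/R, and 13, 12 and 10 in EGR1OV. Its ratio of reads in EGR1OV to Sham was 11.8, with an interval from 3.72 to 60.01.

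In the lectin route the scavenger collectin Colec12 fell by 0.50 and the protease gene Masp1 fell by 0.51 on the log2(FPKM + 1) scale in EGR1OV. In mean FPKM, Sham was 2.02 times EGR1OV for Colec12 and 2.08 times EGR1OV for Masp1. The other 5 listed genes in the table were under the filter. In the alternative route Cfp, which encodes properdin, a stabiliser of the convertase, fell by 0.47 on the log2 scale (limma adjusted p = 0.00050). Cfd, which encodes factor D, the protease that cleaves factor B, had 0 reads in all 9 libraries, which allows up to 3 reads over each group. Of the terminal genes, which form the membrane pore, C6, C8b and C9 also had 0 reads in every library. C8g was the one terminal gene past the filter, and at 1.055 to 1.69 FPKM in Sham and 1.27 to 2.05 in EGR1OV it overlapped between groups.

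Among the soluble regulators Clu, which encodes clusterin, an inhibitor of pore assembly, was by far the most abundant complement gene. It was at 1053, 1035 and 1053 FPKM in Sham, 1100, 1121 and 1059 in H/R, and 1647, 1691 and 1637 in EGR1OV. Clu rose in EGR1OV against Sham by 1.58 times in mean FPKM, with a log2 change of +0.66 ± 0.03 (SE) and a limma adjusted p of 7.6e-08. Cpn1, a subunit of the carboxypeptidase that trims complement peptides, had a log2 change of -0.28 in EGR1OV against Sham and did not pass. Its mean FPKM in Sham was 1.64 times that in EGR1OV, without overlap. Against H/R Cpn1 passed as lower in EGR1OV, where it fell by 0.57 on the log2 scale (limma adjusted p = 0.0013). The mean FPKM of Cpn1 in H/R was itself 1.49 times that of Sham, without overlap, a change that did not pass by limma.

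Among the membrane regulators beside Cd55, 1 gene passed in EGR1OV against Sham, as lower, where 6.51% of all genes tested did so. Cd59a, which encodes a blocker of pore formation, was at 23.1 to 25.2 FPKM in Sham, 23.6 to 24.0 in H/R and 12.0 to 13.4 in EGR1OV. Cd59a fell by 0.86 on the log2 scale in EGR1OV against Sham (limma adjusted p = 4.3e-07). Cr1l, a relative of CR1 that acts as Crry in the mouse, was at 5.07 to 5.26 FPKM in Sham and 5.45 to 5.74 in EGR1OV, a log2 change of +0.10 that did not pass.

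The receptors for complement fragments fell in EGR1OV, with 4 of 4 genes past the filter passing as lower against Sham, where 6.51% of all genes tested did so. Against H/R 3 of the 4 passed as lower, with 6.94% of all genes, and C3ar1, at a log2 change of -0.29, did not. The mean FPKM of C3ar1 in H/R was 1.49 times that in EGR1OV, without overlap. C3ar1 and C5ar1 encode the receptors for the peptides C3a and C5a, and Itgax and Itgb2 encode the chains of complement receptor 4. C3ar1, the receptor for the C3 fragment, was at 1.497, 1.61 and 1.89 FPKM in Sham and 0.965, 0.839 and 0.828 in EGR1OV, and C3ar1 fell by 0.50 on the log2 scale against Sham. C5ar1 fell by 1.17, Itgax fell by 1.43 and Itgb2 fell by 0.81 on that scale, which is of FPKM + 1. In mean FPKM, Sham was 1.90 times EGR1OV for C3ar1, 8.37 times for C5ar1, 7.58 times for Itgax and 2.25 times for Itgb2.

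Macrophage markers moved with the C1q chains and receptors. Of the 12 listed markers 11 passed the filter, 10 of them passed as lower in EGR1OV against Sham, and Aif1 did not. Over all genes tested 6.51% passed as lower and 9.87% as higher in that comparison. The median log2 change of the 11 was -1.28, beside 0.02 over all genes tested, and none of the 12 was at 0 in all libraries of a group. Their summed level was 117 to 125 FPKM in Sham, 104 to 111 in H/R and 26.6 to 31.5 in EGR1OV. The most abundant marker was Lyz2 in Sham, at a mean of 57.7 FPKM, and Lyz2 fell by 3.19 on the log2 scale in EGR1OV. In these bulk libraries fewer cells of a type and less RNA per cell cannot be told apart. The part of macrophage RNA in the falls of C1q and the receptors was not tested. The rising members moved in the other direction from the macrophage markers, and which cells carried the RNA of these members was not tested. Of the tubular markers, 10 of 12 passed the filter, and 5 passed as lower and 1 as higher in EGR1OV against Sham. The shares over all genes were again 6.51% lower and 9.87% higher. Summed levels of the tubular markers were 1978 to 2018 FPKM in Sham and 1274 to 1381 in EGR1OV. Endothelial markers had summed levels of 11.3 to 11.6 FPKM in Sham and 8.09 to 8.63 in EGR1OV, fibroblast markers had 33.6 to 35.4 and 38.2 to 43.1, and lymphocyte markers had at most 0.485 FPKM in any library.

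**Figure D4:**
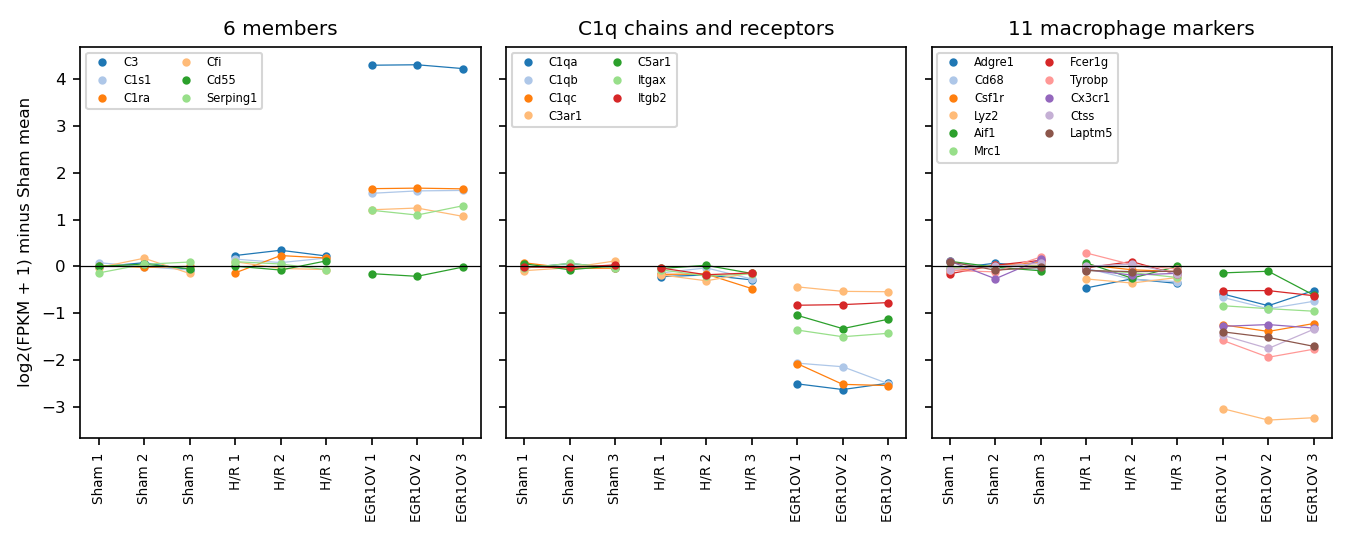
Log2(FPKM + 1) minus the Sham mean (vertical axis) in each of the 9 libraries for the 6 members past the filter, for the C1q chains and receptors, and for 11 macrophage markers. Lines join libraries of a group for reading only; in EGR1OV all members but Cd55 lie above 0, and all genes of the other panels lie below 0.

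The genes nearest to each member over the 9 libraries were found among genes past the filter that are on no complement list. The distance was taken in log2(FPKM + 1) from the Sham mean, so near genes can differ from the member in fold of FPKM. For C3 the nearest were H2-Q4, a class I histocompatibility gene, and the chemokine genes Cxcl11 and Cxcl1, at distances of 0.377, 0.517 and 0.524. Cxcl11 is annotated as a polymorphic pseudogene. H2-Q4 had means of 3.27, 3.82 and 88.8 FPKM in Sham, H/R and EGR1OV. For C1s1 they were Adgra1, Ehf and Pnpt1, and for C1ra they were Heatr9, Tor1aip1 and Erap1. For Cfi they were Zmynd15, 4930599N23Rik and Parp3, and for Serping1 they were Serpinb6b, Ddx24 and Pla2g4c. Mean FPKM in Sham and EGR1OV was 0.0216 and 2.18 for Heatr9, and 23.4 and 53.9 for Serpinb6b. For Cd55 they were Hdx, Snrpd1 and Mpzl3, at distances of 0.116 to 0.136. The 3 members under the filter were not ranked in this way.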

How the data were processed

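RNA sequencing was done on 9 libraries, and the sample titles gave the group and the replicate number. The authors deposited one table of FPKM, with replicates kept in separate columns. The submitters' processing notes name Bowtie2 2.2.3, HISAT2 2.1.0, TopHat2 and the build mm9, without role or order, and the counter and annotation are not given in the sources used here. Positions in the table were equal to GENCODE M21 (GRCm38) for 94.6% of genes, so they are given as GRCm38. This doubt on the build bears on coordinates and promoters, not on the values.

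FPKM values are not counts, and with the exon length of GENCODE M21 the step between values gave reads that were whole within 0.02 for 94.0% of 162897 low to moderate values. The recovered depth differed between libraries by a ratio of 1.14. The floor was 3 reads over a group. PCR reads carry no molecular identifiers here and are not independent molecules, so intervals and floors cover counting error only.

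The limma package (3.58.1, under R 4.3.3) was fitted once to all 9 libraries, with eBayes and a trend in the variance, on log2(FPKM + 1), which understates changes of low genes. Tests were two-sided with Benjamini-Hochberg adjustment over the 13985 genes whose mean reached 0.5 FPKM, of 29404 above 0. Fold thresholds against Sham are the study's, and that for EGR1OV against H/R (1.3-fold) was set by analogy. They were applied here to FPKM + 1, which is a stricter rule for low genes than the same fold of FPKM. A pseudocount of 1 was used. The members and lists were chosen with earlier results of these data known. Genes of the complement lists could be named, though not every result for them is reported here, the 3 nearest genes of each member were named by distance, and markers were given as lists. Alternatives were another pseudocount (0.1), no filter or one at a mean of 5 FPKM, quantile normalization, median-ratio scaling, a replicate block, limma without trend, only the groups compared, no fold threshold or at least 2-fold, and each library left out. After the data were seen, limma voom on recovered reads and Gm23935 as a covariate were added. All 9 replicate pairs differed by more than sampling noise (chi-square per degree of freedom 1.97 to 3.59), so none was merged for the tests. Ratios of reads, their intervals and the floor bounds use reads summed over the 3 libraries of a group. They do not cover this added spread. The code was tested on simulated data. Permutation tests, the motif search and figures were made in Python 3.11.15 (scipy 1.17.1, numpy 2.4.6, matplotlib 3.10.9, pandas 2.3.3).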

Additional observations from a re-analysis of the deposited data

How the results depend on the processing

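The 5 members that rose in EGR1OV kept their direction and their call against Sham and against H/R in all 182 alternative values. The count of members called was 5 in both comparisons whichever library was left out, and 1 in both with a mean of at least 5 FPKM, where C3 alone was tested. C3 reached that mean only through EGR1OV, with group means of 0.496 FPKM in Sham and 0.800 in H/R. Its calls under that filter, which are among the 182, are therefore no independent support. Serping1 passed the main filter of 0.5 FPKM only through EGR1OV, with group means of 0.306 FPKM in Sham and 0.331 in H/R. The calls of Serping1 under the main filter, also among the 182, are no independent support either. In H/R against Sham that count was 0 with no filter, with only the groups compared, and at least 2-fold, and 0 to 1 when a library was left out. The wider complement list had 6 calls in EGR1OV against Sham and 6 against H/R with a mean of at least 5 FPKM (7 genes tested), and 10 against Sham at least 2-fold. Its calls in H/R against Sham were 0 with no filter, with only the groups compared and at least 2-fold, 3 with no fold threshold, 2 with voom, and 0 to 1 when a library was left out. Over all genes tested, the count in EGR1OV against Sham was 1315 with a mean of at least 5 FPKM, 6417 with no fold threshold and 484 at least 2-fold. In EGR1OV against H/R these counts were 1520, 7135 and 489, and in H/R against Sham they were 372, 1635 and 11, with 966 by voom. Fewer genes are tested at the higher filter, and the cause of the other shifts was not tested.

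The change of Cfi in H/R against Sham, which did not pass, turned from -0.0031 to 0.0040 with the pseudocount of 0.1, 0.0129 with median-ratio scaling, 0.0282 with quantile normalization and 0.0833 with the covariate, and ran from -0.0786 to 0.0847 when a library was left out. That of Cd55 ran from -0.0355 to 0.0621 and that of Serping1 from -0.0416 to 0.0768 in the same way. C4b and Cfb passed in EGR1OV against Sham and against H/R with the pseudocount of 0.1 and with voom on recovered reads.

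The groups share replicate numbers, but deviations of libraries with the same number correlated at only -0.021 to 0.062, so the numbers were not taken to pair libraries. With the replicate as a block, 5 members were called in EGR1OV against Sham, 1 in H/R against Sham and 5 in EGR1OV against H/R, no call of a member changed, and the counts over all genes were 2309, 516 and 2654.

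Depth limits C2, C4b and Cfb, which rest on 0 to 30 reads per library. The doubt on strand and on copies of C1ra, C1s1, C2, Cfb and C4b could not be settled from FPKM.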
